A study of Mus musculus with 4 samples.

Results

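The Ifi200 family is a group of interferon-inducible genes that lie next to each other on mouse chromosome 1. The 10 genes described here are Ifi202b, Ifi203, Ifi204, Ifi205, Ifi207, Ifi209, Ifi211, Ifi213, Mndal and Aim2, out of 32285 genes in the count tables. They were chosen by their place in this locus and because Ifi204 had stood out between treatments in stem-like cells of these same data, so that the level of Ifi204 in stem-like cells is given as a description only. The remaining treatment values come from the same 6 mice and are not independent of that choice. Cells came from the bone marrow of 6 female Tppp3CreER LSLTdTomato mice at 6 weeks of age. In these mice a tamoxifen-dependent Cre recombinase made under the Tppp3 gene switches on a red fluorescent reporter. The 3 treatments were tamoxifen+rapamycin on postnatal days 0 and 3 (2 mice), late rapamycin, meaning rapamycin on postnatal day 30 with no tamoxifen (2 mice), and tamoxifen on postnatal days 0 and 3 (2 mice). Rapamycin inhibits mTORC1, a kinase complex that drives protein synthesis and growth. The labels list Lin-Sca+Kit+ cells, Lin-Sca-Kit+ cells and whole bone marrow as the cell types loaded, and they name neither strain nor litter. Of each treatment 1 mouse was processed on each of 2 days, and the 3 mice of a day went through the same droplet run, told apart by hashtag antibodies. Replicate 1 is therefore the mouse of the first day and replicate 2 that of the second day, and pairs of values below are given in that order.

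Proteins of the Ifi200 family carry a HIN domain, which binds DNA, and most also carry a pyrin domain, through which they bind partner proteins. AIM2 recognises DNA in the cytosol and assembles an inflammasome with the adaptor ASC and caspase-1, which leads to the release of interleukin-1 family cytokines and to pyroptotic death. IFI204 (p204) acts in DNA sensing upstream of STING and in macrophage differentiation, and IFI202 lacks a pyrin domain and counteracts AIM2. Interferons induce most of these genes through STAT and IRF factors, which bind the interferon-stimulated response element and the gamma-activated site. In the mouse, Ifi202b is known for expression that differs widely between inbred strains.

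The annotation of build GRCm38 places the 10 genes on chromosome 1 between 173350879 and 174031810, a stretch of 681 kb that holds 21 annotated genes, 13 of them protein coding. From the Aim2 end the order is Aim2, Ifi206, Ifi214, Ifi213, Ifi209, Ifi208, Ifi207, Ifi204, Mndal, Ifi211, Ifi203, Ifi202b and Ifi205, with Cadm3 before Aim2. Ifi204 (ENSMUSG00000073489) lies from 173747293 to 173766943 and Ifi202b (ENSMUSG00000026535) from 173962568 to 173982744, both on the minus strand. The annotated body of Mndal (173849126 to 173942491) spans the whole of Ifi211 (173896345 to 173913046) and nearly all of Ifi203 (173920407 to 173942672) on the same strand, so that reads in the overlap can belong to any of them. The genes are also alike in sequence. Among windows of 90 bases from the last 500 bases of each transcript, where the 3' reads fall, 59.4% of those of Ifi211 also occur in Ifi205 or Mndal, 37.1% of those of Ifi209 occur in Ifi214, and 29.7% of those of Ifi205 occur in Ifi211 or Mndal. The shared part was 9.33% for Mndal, 7.54% for Ifi213 and 1.05% for Ifi203, while none of the windows of Ifi202b, Ifi204, Ifi207 and Aim2 occurred in another gene. Some of the Mndal windows do occur in Ifi204 transcripts, outside their last 500 bases. Counts of Ifi211, Ifi205, Ifi209 and Mndal are therefore less certain than those of Ifi202b, Ifi207 and Aim2.

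Promoter windows from 250 bases before to 50 bases after the gene start were found for 9 of the 10 genes (11 windows, RefSeq, build GRCm38.p6). They were searched on both strands for GAAA followed by any 2 bases and GAAA again, the core of the interferon-stimulated response element (ISRE core), and for TTCNNNGAA, the core of the gamma-activated site. No window of the family holds both. Of all 32851 promoters in the table, 3.44% hold the ISRE core and 8.3% hold TTCNNNGAA. Among the family, 6 of the 9 genes hold the ISRE core: Ifi213, Ifi207, Mndal, Ifi211, Ifi203 and Ifi205. All 3 neighbours of the family with a window (Ifi206, Ifi214 and Ifi208) hold it too. No match was found in the windows of Aim2, Ifi209 and Ifi202b, while Ifi202b holds TTCNNNGAA, beginning 148 bases before the start. Shown are the windows of the genes that differ most between treatments below and of their closest copies. The window of Ifi213, which ran the other way in some gates without a call, is shown too. The ISRE core is in capitals on either strand, and for Ifi202b TTCNNNGAA is in capitals. All 6 windows come from the minus strand of chromosome 1 and are written in the direction of transcription: Ifi202b at chr1:173982795-173983094, Ifi211 at chr1:173912997-173913296, Ifi205 at chr1:174031706-174032005, Mndal at chr1:173880138-173880437, Ifi203 at chr1:173942443-173942742 and Ifi213 at chr1:173599223-173599522.
Ifi202b: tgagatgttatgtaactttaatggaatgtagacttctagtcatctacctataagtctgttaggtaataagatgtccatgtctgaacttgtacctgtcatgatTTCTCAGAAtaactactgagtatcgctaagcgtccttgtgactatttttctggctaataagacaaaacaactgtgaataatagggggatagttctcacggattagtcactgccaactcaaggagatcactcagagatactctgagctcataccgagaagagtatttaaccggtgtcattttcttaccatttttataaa
Ifi211: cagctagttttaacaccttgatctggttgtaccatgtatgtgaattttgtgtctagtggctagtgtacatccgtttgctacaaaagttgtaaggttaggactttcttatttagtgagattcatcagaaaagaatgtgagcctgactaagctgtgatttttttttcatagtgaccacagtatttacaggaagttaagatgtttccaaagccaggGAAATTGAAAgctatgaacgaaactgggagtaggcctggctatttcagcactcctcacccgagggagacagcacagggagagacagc
Ifi205: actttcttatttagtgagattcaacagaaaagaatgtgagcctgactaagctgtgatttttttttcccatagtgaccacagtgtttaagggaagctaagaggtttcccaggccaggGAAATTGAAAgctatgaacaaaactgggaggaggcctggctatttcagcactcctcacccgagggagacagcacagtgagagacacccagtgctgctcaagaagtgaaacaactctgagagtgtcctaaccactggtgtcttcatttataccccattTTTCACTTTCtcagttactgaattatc
Mndal: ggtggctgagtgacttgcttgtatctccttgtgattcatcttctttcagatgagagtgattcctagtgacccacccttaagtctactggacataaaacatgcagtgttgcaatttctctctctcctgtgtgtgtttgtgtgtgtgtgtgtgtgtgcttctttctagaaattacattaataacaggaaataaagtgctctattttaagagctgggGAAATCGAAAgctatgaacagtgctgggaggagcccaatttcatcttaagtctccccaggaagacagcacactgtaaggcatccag
Ifi203: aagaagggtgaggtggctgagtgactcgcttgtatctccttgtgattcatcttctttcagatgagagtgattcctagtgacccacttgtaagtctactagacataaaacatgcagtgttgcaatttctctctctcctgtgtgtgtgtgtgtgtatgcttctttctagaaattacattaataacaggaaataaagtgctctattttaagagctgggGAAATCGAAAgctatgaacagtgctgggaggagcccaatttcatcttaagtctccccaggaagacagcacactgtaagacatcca
Ifi213: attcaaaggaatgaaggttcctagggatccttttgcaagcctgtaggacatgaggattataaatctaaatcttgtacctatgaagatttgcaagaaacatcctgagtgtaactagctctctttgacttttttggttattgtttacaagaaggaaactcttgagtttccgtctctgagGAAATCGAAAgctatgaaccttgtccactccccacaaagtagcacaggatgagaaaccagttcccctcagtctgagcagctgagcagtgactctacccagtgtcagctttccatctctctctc
The match begins 37 bases before the start of Ifi211, 36 before that of Mndal, 35 before that of Ifi203 and 73 before that of Ifi213. Mndal and Ifi203 each have a further window not shown, and that of Mndal holds a match on the opposite strand 54 bases before the start. In Ifi205 it begins 134 bases before the start, and a second match on the opposite strand begins at position 23. Alignment of the windows gave 282 identical of 289 aligned bases (97.6%) for Mndal and Ifi203, and 188 of 199 (94.5%) for Ifi211 and Ifi205. Mndal and Ifi203 thus share nearly the same upstream sequence, and so do Ifi211 and Ifi205.

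**Figure D1:**
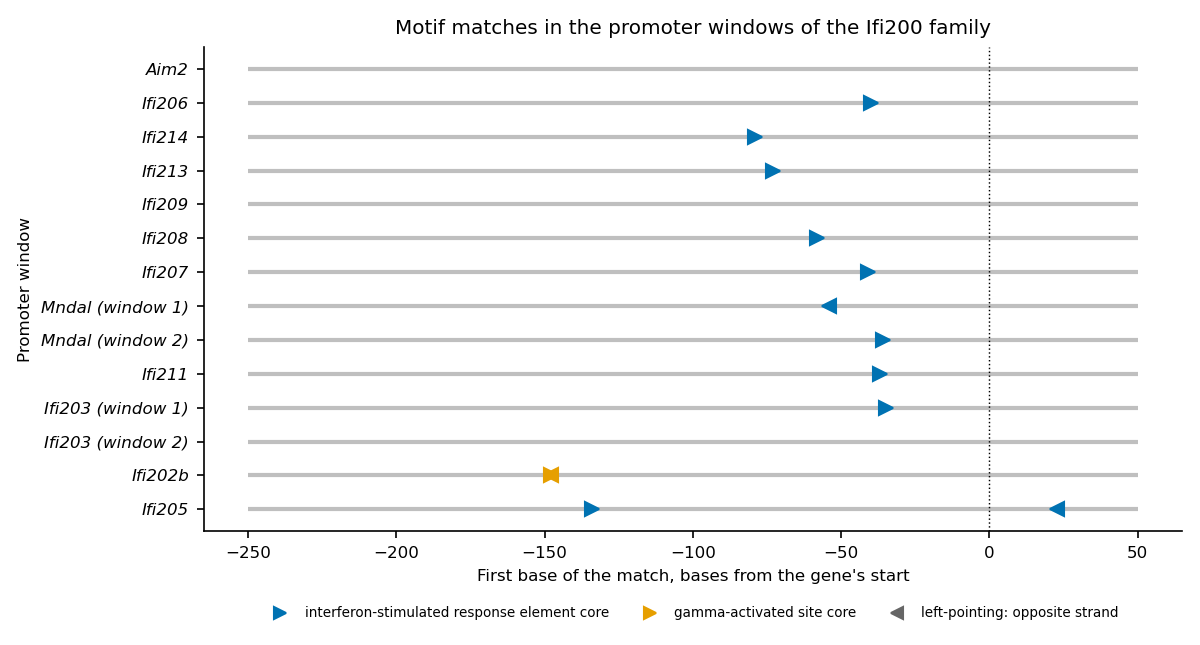
Matches of the interferon-stimulated response element core (blue) and of the gamma-activated site core (orange) in the promoter windows of the Ifi200 locus, in chromosomal order from top to bottom. The x axis gives the first base of the match relative to the gene start in bases, and triangles pointing left are matches on the opposite strand. Most windows hold 1 match within 80 bases before the start, Ifi205 holds 2, and Aim2 and Ifi209 hold none.

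The tables gave 34593 kept cells with 22460617 to 36882524 unique molecular identifiers (UMIs) of genes per mouse. Cells were gated 1 by 1 by a score, the mean of a list's marker levels after each marker was standardised over cells. A gate needed a score of at least 0.5 and a lead of at least 0.25 over the next list, which left 26322 cells (76.1%) in 14 gates. Of these gates, 9 had at least 50 cells in every mouse and at most 15% of cells within 0.05 of a score cut. These 9 were tested: HSC, lymphoid-primed progenitor, neutrophil progenitor, neutrophil, monocyte, B cell, erythroid, megakaryocyte, and basophil and mast cell. The plasma cell gate had 66 to 97 cells per mouse but 15.9% of cells near a cut, and was not tested. No family gene was a marker. The HSC gate (3108 cells) had the stem cell marker Procr at 66.9 CPM (UMIs scaled to the same standard total for every mouse and gate) against 2.04 in all other cells, and Hlf at 1065 against 132. The markers that check a gate also defined it. Gates are ranges of a score, and 2249 cells lay within 0.05 of a cut. The mouse called late rapamycin replicate 1 stood apart, with 118 B cells against 440 to 936 in the other mice and 1254 neutrophil progenitors against 279 to 476. Counts of calls without this mouse are given beside the main ones. They come without the share of all gene-gate pairs called in the same fit, and are not read as a result about the family. The 2 days shared 126 cell barcodes. Treatments follow the hashtag table. If the mouse numbers in the sample labels were hashtag numbers instead, the tamoxifen+rapamycin and tamoxifen mice would be exchanged, and the pair set apart below would be the tamoxifen+rapamycin mice.

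Over all kept cells the family ranged widely in depth: 27019 UMIs for Mndal, 24010 for Ifi203, 11377 for Aim2, 5362 for Ifi209, 1681 for Ifi204, 1116 for Ifi207, 719 for Ifi211, 597 for Ifi213, 311 for Ifi202b and 79 for Ifi205. The genes fell into several patterns across lineages. Mndal, Ifi203 and Aim2 were broad, with their lowest levels in neutrophils and erythroid cells. Ifi204, Ifi207 and Ifi211 peaked in monocytes, and Ifi209 in B cells and monocytes. Each gene's level in a gate was compared with its level in the HSC gate in 1 edgeR quasi-likelihood fit over the 6 mice with mouse as a block. Of 80 gene-gate pairs 64 passed the low-count filter, from 8 genes (Ifi202b and Ifi205 did not pass). Of these, 14 were called higher than in HSC, against 30.4% of all gene-gate pairs called higher, and 20 were called lower, against 29.7% of all pairs (Benjamini-Hochberg adjusted p under 0.05). Without Ifi204, whose HSC level entered the choice of the family and is the baseline here, 12 of 56 pairs were higher and 19 lower, and Ifi204 is described below without a test. With all 8 genes and without late rapamycin replicate 1 the counts were 15 higher and 20 lower. Calls are frequent over all genes, so that a call as such is common here.

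**Figure D2:**
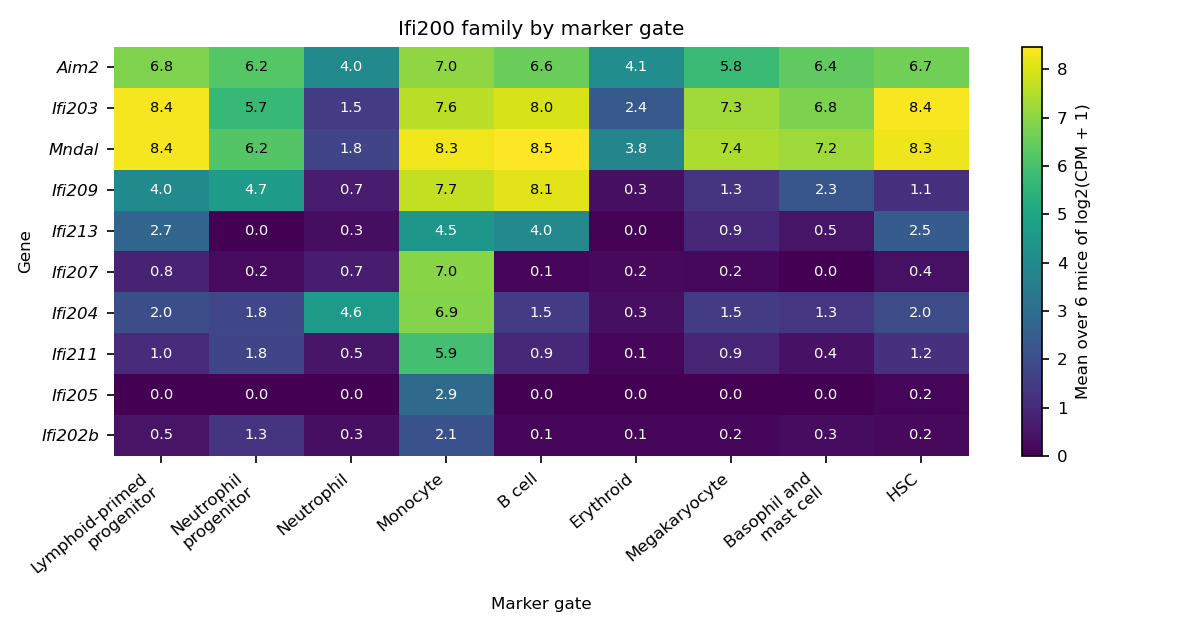
Mean over 6 mice of log2(CPM + 1), for the 10 genes (y axis) in the 9 tested gates (x axis), with HSC in the last column. Mndal and Ifi203 are at 6.8 or more in the HSC, lymphoid-primed, monocyte, B cell, megakaryocyte and basophil columns, while Ifi207 and Ifi205 stand out in the monocyte column only; levels of different genes on this scale also reflect how well each gene is captured.

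In monocytes 6 of the 7 genes tested besides Ifi204 were called higher than in HSC and 1 lower, with 37.5% of all 11819 genes called higher there. The median log2 difference of the 7 genes was 2.66, against 0.06 over all genes tested. Ifi207 had 964 of its 1116 UMIs in monocytes and at most 15 in any other tested gate. It passed the filter only through monocytes, so its call adds no support to this count or median. Ifi211 had 434 of its 719 UMIs in monocytes and at most 8.36 CPM in any mouse of another tested gate. Its place in the fit thus rests largely on monocytes too, and its call likewise adds no support to the count or median. Ifi207 averaged 129.6 ± 40.8 CPM in monocytes and 0.375 ± 0.488 CPM in HSC (SD, n = 6 mice each), a log2 difference of 8.29 ± 0.34 (SE). Ifi204 averaged 122 ± 41.5 CPM in monocytes and 5.11 ± 5.97 CPM in HSC. For Ifi211 the means were 63.4 ± 22.2 CPM in monocytes and 2.58 ± 3.59 CPM in HSC, and the log2 difference was 5.17 ± 0.45. These 3 genes were higher in monocytes than in the same mouse's HSC in 6 of 6 mice. Ifi213, another HIN family gene, averaged 23.5 ± 11.6 CPM in monocytes and 4.87 ± 2.05 CPM in HSC, also higher in 6 of 6 mice. Aim2 differed less, with 133 ± 19.2 CPM in monocytes and 102 ± 12.1 CPM in HSC (log2 difference 0.72 ± 0.11, adjusted p = 9.49e-08). Ifi205 and Ifi202b had too few UMIs for the fit. Ifi205 had 51 of its 79 UMIs in monocytes and 20 in the small gate of conventional dendritic cells (147 cells, of which 32.0% lay near the cut). Of the 311 UMIs of Ifi202b, 156 lay in monocytes and 80 in neutrophil progenitors.

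Ifi209 was low in HSC and high in B cells and monocytes. It averaged 273 ± 22.5 CPM in B cells, 212 ± 52.3 CPM in monocytes, 27.1 ± 12.3 CPM in neutrophil progenitors and 16.0 ± 5.07 CPM in lymphoid-primed progenitors, against 1.38 ± 1.21 CPM in HSC (SD, n = 6 mice). The log2 differences were 8.18 ± 0.31, 7.99 ± 0.31, 4.97 ± 0.39 and 4.07 ± 0.45, each in 6 of 6 mice. A call in basophils and mast cells (4.85 ± 3.06 CPM) was lost with a stricter gate and without any 1 of the replicate 2 mice. Ifi213 was likewise higher in B cells, at 15.6 ± 5.59 CPM against 4.87 ± 2.05 CPM in HSC (log2 difference 1.99 ± 0.33), and it had 0 UMIs in the 3188 neutrophil progenitors, in which 29832706 UMIs were counted.

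Mndal and Ifi203 followed each other across the 9 gates. In neutrophils Mndal averaged 2.56 ± 1.06 CPM and Ifi203 2.21 ± 1.55 CPM, against 307 ± 37.0 and 337 ± 45.9 CPM in HSC (SD, n = 6 mice). Their log2 differences there were −5.51 ± 0.22 for Mndal and −6.06 ± 0.23 for Ifi203. Erythroid cells were similar, with 13.4 ± 2.22 CPM of Mndal and 4.36 ± 1.62 CPM of Ifi203. Both genes were also lower in megakaryocytes, with 176 ± 45.1 CPM of Mndal and 156 ± 29.0 CPM of Ifi203, and in basophils and mast cells, with 149 ± 27.2 CPM of Mndal and 115 ± 29.4 CPM of Ifi203. They parted in monocytes, where Ifi203 was lower at 203 ± 71.7 CPM (log2 difference −0.42 ± 0.12), a call that was lost with a stricter gate (adjusted p = 0.126). Mndal was called higher in monocytes and in B cells, but in only 3 and 4 of 6 mice by plain CPM, and these calls were lost with RLE size factors (adjusted p = 0.115 in monocytes and 0.0927 in B cells). Aim2 was lower in neutrophils at 15.5 ± 3.81 CPM, in erythroid cells at 16.8 ± 2.83 CPM and in megakaryocytes at 54.5 ± 6.86 CPM, in 6 of 6 mice each. Ifi204 averaged 28.8 ± 18.7 CPM in neutrophils. By mouse, tamoxifen mice had 14.1 and 19.0 CPM in neutrophils against 11.9 and 13.5 CPM in HSC. Tamoxifen+rapamycin mice had 37.4 and 39.8 CPM in neutrophils against 1.84 and 0.971 CPM in HSC. Late rapamycin mice had 6.59 and 56.2 CPM in neutrophils against 2.43 and 0 CPM in HSC. These HSC values entered the choice of the family, and whether the distance from HSC differs between treatments was not tested. In erythroid cells 5 of the 7 genes tested besides Ifi204 were called lower and 0 higher, with 42.5% of all genes called lower there.

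Between treatments, the question was whether rapamycin given with tamoxifen, or late, went with a change of the family, each gate being fitted by edgeR over the 6 mice with day as a block. Late rapamycin mice had no tamoxifen and were injected at a later age. In late rapamycin over tamoxifen, rapamycin, the absence of tamoxifen and the age at injection therefore cannot be told apart. Leaving out Ifi204 in HSC, 89 gene-gate pairs were available, of which 47 passed the filter on low counts. For tamoxifen+rapamycin over tamoxifen, 4 of these pairs were called lower and 0 higher, with 0.202% of all 87809 gene-gate pairs called in either direction (14 family pairs had an unadjusted p under 0.05). For late rapamycin over tamoxifen, 5 were called lower and 0 higher, with 0.512% of all pairs called (20 family pairs at unadjusted p under 0.05). For tamoxifen+rapamycin over late rapamycin, edgeR called 0 in either direction, with 0.339% of all pairs called (8 family pairs at unadjusted p under 0.05), and DESeq2 called 0. No share of all pairs at an unadjusted edgeR p under 0.05 is given, so the family counts at that threshold are not read as an excess. The first 2 comparisons share the tamoxifen mice. The calls were Ifi202b in monocytes and Ifi204 in lymphoid-primed progenitors and megakaryocytes in both comparisons, Ifi211 in lymphoid-primed progenitors for tamoxifen+rapamycin, and Mndal in lymphoid-primed progenitors and megakaryocytes for late rapamycin. Ifi202b in monocytes and Ifi211 in lymphoid-primed progenitors had 0 UMIs in the 4 rapamycin-treated mice. They passed the filter only through the tamoxifen mice. Ifi204 in lymphoid-primed progenitors and megakaryocytes had at most 7 UMIs in any rapamycin-treated mouse and likewise passed only through the tamoxifen mice. The calls of Ifi202b, Ifi204 and Ifi211 therefore add no support to these counts. Only the Mndal calls for late rapamycin remain. Without late rapamycin replicate 1 the counts called were 11 and 8. No share of all pairs called is given without that mouse, so these counts are not read as a result about the family. The median log2 difference of the family genes tested lay between −0.47 and 0.59 in every gate and in both comparisons with tamoxifen, against −0.01 to 0.00 over all genes tested.

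**Figure D3:**
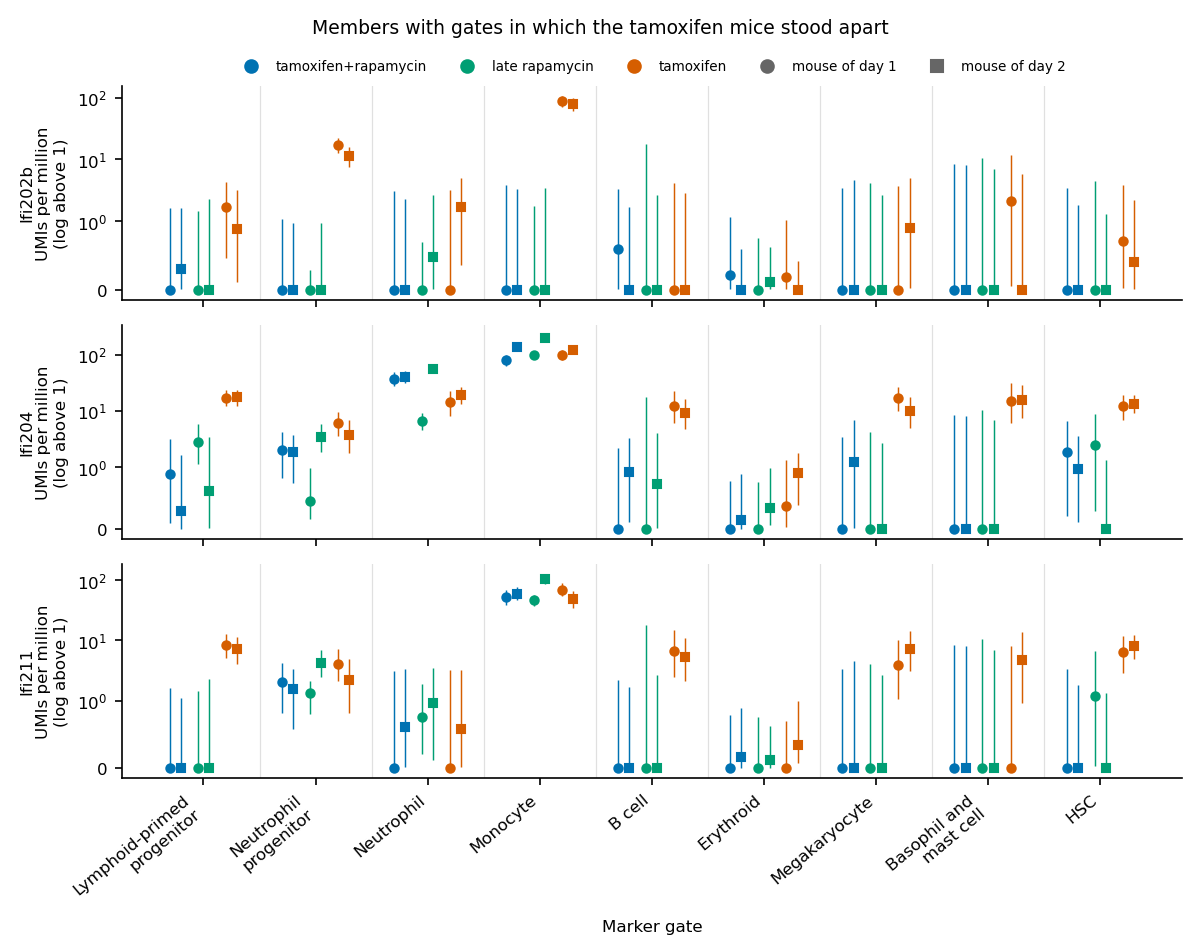
Level in CPM (y axis, linear up to 1 and logarithmic above) of Ifi202b, Ifi204 and Ifi211 in each mouse and gate (x axis), with tamoxifen+rapamycin in blue, late rapamycin in green and tamoxifen in orange, circles for the first day and squares for the second; bars are exact 95% Poisson intervals, which cover counting error only. The tamoxifen mice are set apart for Ifi202b in monocytes and neutrophil progenitors, and for Ifi204 and Ifi211 in HSC, lymphoid-primed progenitors, B cells and megakaryocytes, whereas in monocytes the treatments overlap for Ifi204 and Ifi211.

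Ifi202b was found almost only in the tamoxifen mice. Over all kept cells it had 2 and 1 UMIs in tamoxifen+rapamycin mice, 0 and 2 in late rapamycin mice, and 178 and 128 in tamoxifen mice. The lower tamoxifen mouse had 4.59 CPM and the highest other mouse 0.0890 CPM, which is below a floor of 3 UMIs. The lower tamoxifen mouse stood 34.4 times above that floor. By this floored ratio Ifi202b had rank 1 among 14777 genes with at least 60 UMIs. The ranking was made after the values had been seen and carries no test. In monocytes Ifi202b had 0 UMIs in each of the 4 rapamycin-treated mice, among 952845 to 2081703 UMIs per mouse, and 91 and 65 UMIs in tamoxifen mice (88.0 and 78.6 CPM). A UMI of Ifi202b was seen in 24.2% and 27.7% of the tamoxifen mice's monocytes, and in 0.164% and 0% of their erythroid cells, with median depths of 3569 UMIs per cell in the monocyte gate and 10841 in the erythroid gate. With a floor of 3 UMIs over both mice of a treatment, the monocyte level was at least 57.7-fold lower in tamoxifen+rapamycin mice and at least 87.7-fold lower in late rapamycin mice than in tamoxifen mice. Both differences were called by edgeR (adjusted p = 0.000967 for tamoxifen+rapamycin and 0.000355 for late rapamycin), in a gate where 0.0218% and 0.0109% of all 9177 genes were called in these comparisons. These shares are 2 genes and 1 gene, Ifi202b included, and Ifi202b passed the filter only through the tamoxifen mice. These differences therefore add no support beyond the counts themselves. DESeq2 did not call them (adjusted p = 0.99997 and 0.99989), while they held in the 12 other alternatives tried.

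In neutrophil progenitors Ifi202b also separated the tamoxifen mice from the others. No UMI was seen in the 4 rapamycin-treated mice, and 50 and 30 UMIs in tamoxifen mice (16.9 and 11.2 CPM). The level was at least 34.4-fold lower in tamoxifen+rapamycin mice and at least 80.4-fold lower in late rapamycin mice, but neither difference was called (edgeR adjusted p = 0.335 and 0.132). In other gates the tamoxifen mice had few UMIs, with 4 and 2 in lymphoid-primed progenitors, 1 and 1 in HSC, and 0 and 0 in B cells, and the rest of their UMIs lay mostly in cells that passed no gate. The mice of all 3 treatments shared their droplet runs within each day, and on each day the other mice of the run had at most 2 UMIs. Pooled over all cells, the tamoxifen level was 103 times that of tamoxifen+rapamycin mice (95% counting interval 34.8 to 500.3) and 205 times that of late rapamycin mice (56.2 to 1697). Strain and litter are not given, so they cannot be told apart from treatment for this gene. The same holds for Ifi204, Ifi211 and Mndal below, which lie in the same locus.

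Ifi204, a sensor of DNA, was called lower in both rapamycin-treated groups than in the tamoxifen mice in lymphoid-primed progenitors and megakaryocytes, gates in which it is low, and was not called in monocytes, where it is high. In HSC, the values that led to the choice of this family, it had 1.84 and 0.971 CPM in tamoxifen+rapamycin mice and 2.43 and 0 CPM in late rapamycin mice, against 11.9 and 13.5 CPM in tamoxifen mice (17 and 34 UMIs). A UMI was seen in 0.475% and 0.355% of HSC of tamoxifen+rapamycin mice and in 0.388% and 0% of those of late rapamycin mice, against 3.09% and 4.67% in tamoxifen mice. For comparison, erythroid cells of the tamoxifen mice had a UMI in 0.328% and 1.21% of cells, with a median depth of 10841 UMIs per cell against 3100.5 in the HSC gate. Each tamoxifen mouse thus had a larger share of HSC with a UMI of Ifi204 than any other mouse.

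Lymphoid-primed progenitors gave the clearest values for Ifi204 outside HSC. It had 0.889 and 0.298 CPM (2 and 1 UMIs) in tamoxifen+rapamycin mice and 2.78 and 0.622 CPM (7 and 1 UMIs) in late rapamycin mice, against 17.1 and 17.3 CPM (41 and 39 UMIs) in tamoxifen mice. The groups did not overlap. The pooled tamoxifen level was 32.2 times the tamoxifen+rapamycin level (95% counting interval 10.6 to 159). The fitted log2 differences were −4.84 ± 0.58 for tamoxifen+rapamycin (adjusted p = 0.00740) and −3.17 ± 0.50 for late rapamycin (adjusted p = 0.0277), in a gate where 0.144% and 0.253% of 11079 genes were called. Ifi204 passed the filter in this gate only through the tamoxifen mice, so these calls give no support beyond the counts. Both calls were lost without tamoxifen replicate 2 (adjusted p = 0.0534 and 0.159), and the late rapamycin call also before doublet removal (adjusted p = 0.0531) and with stricter cell filters (adjusted p = 0.0549). In megakaryocytes Ifi204 had 0 and 1.24 CPM in tamoxifen+rapamycin mice and 0 and 0 CPM in late rapamycin mice, against 16.9 and 9.94 CPM in tamoxifen mice. The late rapamycin level there was at least 10.2-fold lower (adjusted p = 0.000615), and the tamoxifen level was 25.0 times that of tamoxifen+rapamycin mice (95% counting interval 4.13 to 1022, adjusted p = 0.0207). Of all 9768 genes in this gate, 0.307% were called for tamoxifen+rapamycin and 1.48% for late rapamycin. Here too Ifi204 passed the filter only through the tamoxifen mice. The tamoxifen+rapamycin call was lost in 6 of 11 alternatives and the late rapamycin call without late rapamycin replicate 1 (adjusted p = 0.0737). The megakaryocyte gate also carried stem cell markers, with the 10 HSC markers at 2299 CPM in sum and its own markers at 1864 CPM; in the HSC gate the HSC markers summed to 5243 CPM. By mouse, the HSC marker sum in megakaryocytes was 2145 and 2311 CPM in tamoxifen+rapamycin mice and 1660 and 2376 CPM in late rapamycin mice, against 2464 and 2710 CPM in tamoxifen mice, so that both tamoxifen mice were highest. In lymphoid-primed progenitors it was 1348 and 1527 CPM in tamoxifen+rapamycin mice and 1306 and 2203 CPM in late rapamycin mice, against 1595 and 1904 CPM in tamoxifen mice. The part of these markers in the Ifi204 differences was not tested.

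B cells and the basophil and mast cell gate showed the same separation of mice for Ifi204 at lower depth. B cells had 0 and 0.927 CPM in tamoxifen+rapamycin mice and 0 and 0.731 CPM in late rapamycin mice, against 12.4 and 9.21 CPM in tamoxifen mice, and neither difference was called (adjusted p = 0.121 and 0.958). Basophils and mast cells had 0 UMIs in the 4 rapamycin-treated mice and 15.04 and 15.5 CPM in tamoxifen mice, and Ifi204 did not pass the filter there. Neutrophil progenitors were closer together, with 2.03 and 1.83 CPM in tamoxifen+rapamycin mice, 0.455 and 3.45 CPM in late rapamycin mice and 6.10 and 3.74 CPM in tamoxifen mice. In neutrophils the order was another, with 37.4 and 39.8 CPM in tamoxifen+rapamycin mice and 6.59 and 56.2 CPM in late rapamycin mice, against 14.1 and 19.0 CPM in tamoxifen mice, and no difference was called. In monocytes Ifi204 had 78.7 and 137 CPM in tamoxifen+rapamycin mice and 99.4 and 196 CPM in late rapamycin mice, against 99.6 and 123 CPM in tamoxifen mice. These groups overlapped, and the pooled tamoxifen level was 1.00 times that of tamoxifen+rapamycin mice (95% counting interval 0.825 to 1.22).

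Ifi211, the neighbour of Ifi204 beyond Mndal, showed a similar pattern at lower counts. In lymphoid-primed progenitors it had 0 UMIs in the 4 rapamycin-treated mice and 20 and 16 UMIs in tamoxifen mice (8.36 and 7.09 CPM). It passed the filter there only through the tamoxifen mice. The level was at least 14.5-fold lower in tamoxifen+rapamycin mice (edgeR adjusted p = 0.0491, called) and at least 10.7-fold lower in late rapamycin mice (adjusted p = 0.0502, not called). The first of these calls was lost in 8 of 12 alternatives. In HSC it had 0 and 0 CPM in tamoxifen+rapamycin mice and 1.21 and 0 CPM in late rapamycin mice, against 6.32 and 7.93 CPM in tamoxifen mice (adjusted p = 0.177 and 0.108, not called). B cells and megakaryocytes had no UMI in the 4 rapamycin-treated mice, while tamoxifen mice had 6.76 and 5.37 CPM in B cells and 3.98 and 7.23 CPM in megakaryocytes. In monocytes Ifi211 had 51.4 and 59.4 CPM in tamoxifen+rapamycin mice and 46.1 and 105 CPM in late rapamycin mice, against 69.6 and 48.4 CPM in tamoxifen mice, and the groups overlapped. Since 59.4% of its 3' windows also occur in Ifi205 or Mndal, some of its reads may have been dropped or assigned elsewhere.

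Whether the treatment difference itself differed between a gate and monocytes was tested with an interaction term in 1 edgeR fit over the 9 gates, a test chosen after the values had been seen. In lymphoid-primed progenitors the difference was called for Ifi204 and Ifi211 in both comparisons, with 0.00492% of all 101535 gene-gate pairs called for tamoxifen+rapamycin over tamoxifen and 0.0138% for late rapamycin over tamoxifen. For Ifi204 the log2 difference in lymphoid-primed progenitors minus that in monocytes was −4.84 ± 0.84 in the tamoxifen+rapamycin comparison (adjusted p = 0.0130) and −3.55 ± 0.71 in the late rapamycin comparison (adjusted p = 0.0439). For Ifi211 the values were −6.90 ± 1.18 (adjusted p = 0.0130) and −7.26 ± 1.25 (adjusted p = 0.0146), which rest on counts of 0 and are not bounds. All 4 calls were lost without tamoxifen replicate 1 and without tamoxifen replicate 2. Both Ifi204 calls and the first Ifi211 call were also lost without either tamoxifen+rapamycin mouse, and the other Ifi211 call without late rapamycin replicate 1. The summed level of the 8 monocyte markers in lymphoid-primed progenitors was 212 and 104 CPM in tamoxifen+rapamycin mice and 176 and 62.8 CPM in late rapamycin mice, against 162 and 94.3 CPM in tamoxifen mice, with 0 of 8 markers at 0 UMIs. In HSC the sum was 78.1 and 35.5 CPM in tamoxifen+rapamycin mice and 70.3 and 40.3 CPM in late rapamycin mice, against 42.9 and 27.4 CPM in tamoxifen mice. In megakaryocytes it was 42.7 and 14.9 CPM in tamoxifen+rapamycin mice and 40.2 and 19.2 CPM in late rapamycin mice, against 38.8 and 20.8 CPM in tamoxifen mice. In none of these 3 gates were both tamoxifen mice above the other 4 mice for the monocyte markers. The part of monocyte transcripts in the Ifi204 and Ifi211 differences was not tested.

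Mndal, a nuclear member of the family, was called lower in late rapamycin mice, which had no tamoxifen, than in tamoxifen mice in 2 gates. In lymphoid-primed progenitors it had 285 and 325 CPM in tamoxifen+rapamycin mice and 273 and 287 CPM in late rapamycin mice, against 398 and 418 CPM in tamoxifen mice. The log2 difference was −0.54 ± 0.09 for late rapamycin (adjusted p = 0.0284) and −0.41 ± 0.09 for tamoxifen+rapamycin (adjusted p = 0.152, not called). In megakaryocytes Mndal had 153 and 162 CPM in tamoxifen+rapamycin mice and 124 and 171 CPM in late rapamycin mice, against 192 and 256 CPM in tamoxifen mice. There the log2 difference was −0.59 ± 0.13 for late rapamycin (adjusted p = 0.00454) and −0.48 ± 0.13 for tamoxifen+rapamycin (adjusted p = 0.104, not called). The call in lymphoid-primed progenitors was lost in 6 of 13 alternatives: without the day block (adjusted p = 0.0950), with DESeq2 (0.0605), without tamoxifen replicate 1 (0.153), without tamoxifen replicate 2 (0.124), before doublet removal (0.0543) and with stricter cell filters (0.0571). The megakaryocyte call was lost without the day block (adjusted p = 0.106) and without tamoxifen replicate 2 (0.280). Monocytes had 233 and 290 CPM in tamoxifen+rapamycin mice and 174 and 398 CPM in late rapamycin mice, against 426 and 429 CPM in tamoxifen mice, and neither difference was called (adjusted p = 0.995 and 0.489). In HSC the tamoxifen+rapamycin mice at 321 and 329 CPM overlapped the tamoxifen mice at 322 and 344 CPM, and the late rapamycin mice had 243 and 286 CPM.

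**Figure D4:**
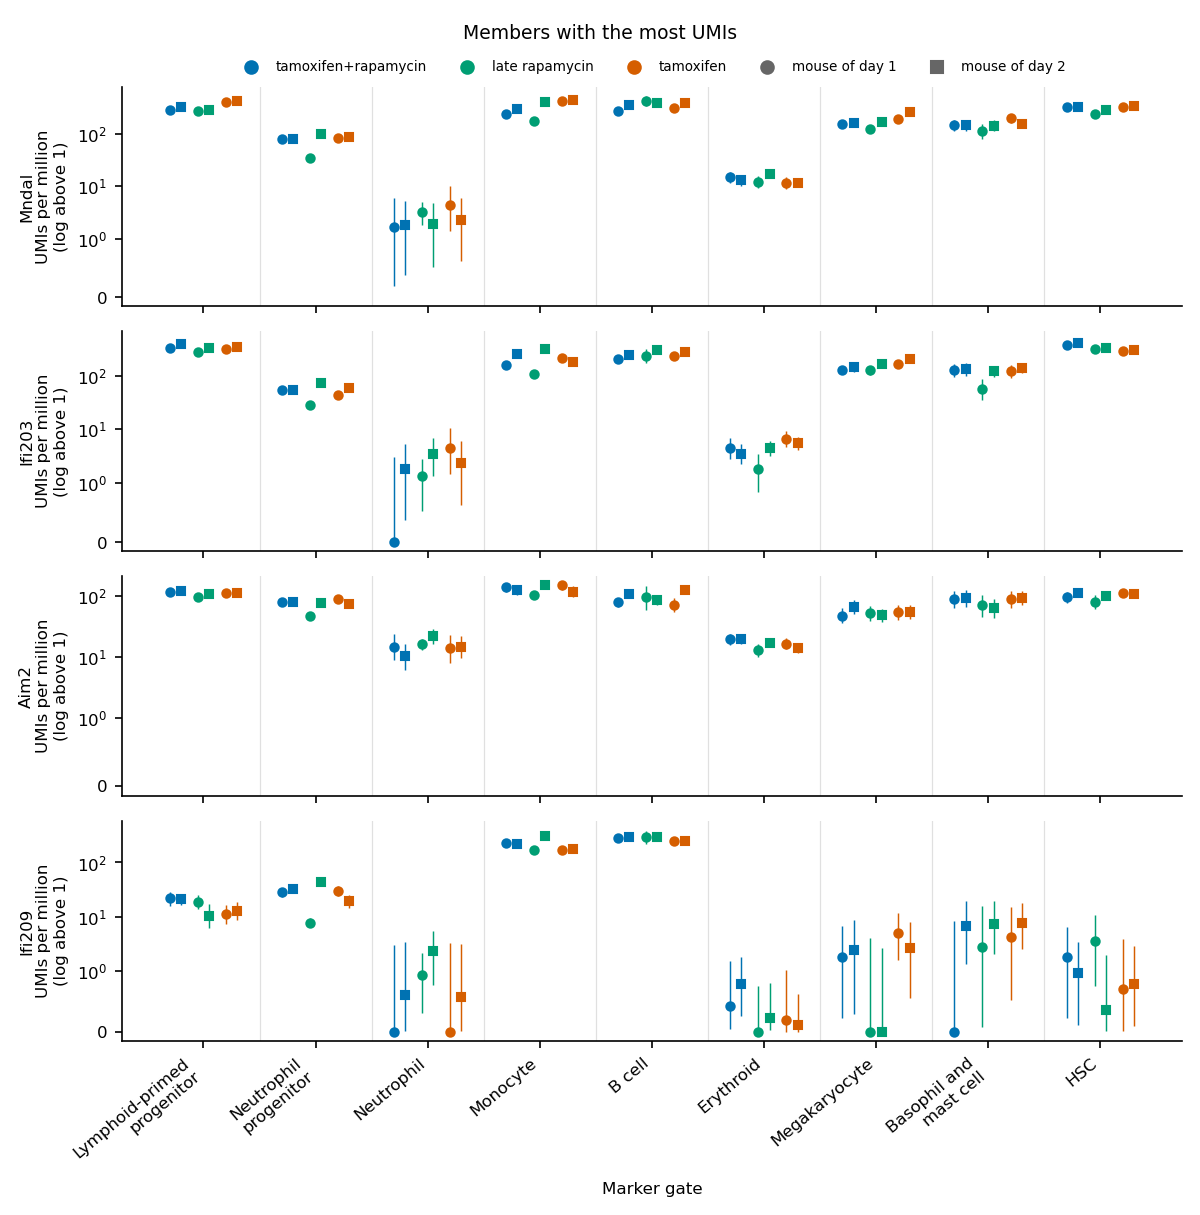
Level in CPM (y axis, linear up to 1 and logarithmic above) of Mndal, Ifi203, Aim2 and Ifi209 in each mouse and gate (x axis), with the colours, shapes and 95% Poisson intervals of the plot for Ifi202b, Ifi204 and Ifi211. Mndal in lymphoid-primed progenitors is at 398 and 418 in tamoxifen mice, above the other 4 mice.

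No call was made between treatments for Ifi203, Ifi205, Ifi207, Ifi209, Ifi213 and Aim2. Ifi203, which overlaps Mndal, ran the other way in HSC, with 379 and 406 CPM in tamoxifen+rapamycin mice and 312 and 333 CPM in late rapamycin mice, against 287 and 306 CPM in tamoxifen mice (log2 difference 0.40 ± 0.09 for tamoxifen+rapamycin, adjusted p = 0.220). In megakaryocytes Ifi203 had 129.8 and 144 CPM in tamoxifen+rapamycin mice and 126 and 167 CPM in late rapamycin mice, against 164 and 204 CPM in tamoxifen mice. Ifi213 was above the tamoxifen mice in each rapamycin-treated mouse in 3 gates. In HSC it had 6.43 and 4.86 CPM in tamoxifen+rapamycin mice and 7.28 and 5.76 CPM in late rapamycin mice, against 2.11 and 2.78 CPM in tamoxifen mice. Lymphoid-primed progenitors had 6.67 and 8.63 CPM in tamoxifen+rapamycin mice and 8.73 and 6.84 CPM in late rapamycin mice, against 2.92 and 3.10 CPM in tamoxifen mice. In B cells Ifi213 had 16.1 and 16.2 CPM in tamoxifen+rapamycin mice and 14.5 and 25.6 CPM in late rapamycin mice, against 9.02 and 12.3 CPM in tamoxifen mice. In these 3 gates the order was the opposite of that of Ifi204, and the edgeR adjusted p-values ran from 0.357 to 0.958. In megakaryocytes Ifi213 had 0 and 1 UMIs in tamoxifen+rapamycin mice and 0 and 2 in late rapamycin mice, against 4 and 1 in tamoxifen mice. In basophils and mast cells only tamoxifen replicate 1 had UMIs (3). The share of all genes that set these mice apart in this way is not given, so no result is read from the order. Ifi209 in lymphoid-primed progenitors had 21.8 and 21.1 CPM in tamoxifen+rapamycin mice and 18.7 and 10.6 CPM in late rapamycin mice, against 11.3 and 12.8 CPM in tamoxifen mice (log2 difference 0.85 ± 0.27 for tamoxifen+rapamycin, adjusted p = 0.510). Aim2 in HSC had 96.5 and 112 CPM in tamoxifen+rapamycin mice and 81.3 and 100.4 CPM in late rapamycin mice, against 114 and 108 CPM in tamoxifen mice, and its log2 differences from tamoxifen lay between −0.47 and 0.50 over all gates and both comparisons. In monocytes Ifi207 had 76.6 and 134 CPM in tamoxifen+rapamycin mice and 164 and 186 CPM in late rapamycin mice, against 119 and 98.0 CPM in tamoxifen mice. Ifi205 had 6.30 and 10.8 CPM in tamoxifen+rapamycin mice and 1.44 and 3.79 CPM in late rapamycin mice, against 17.4 and 9.68 CPM in tamoxifen mice, from 51 UMIs in all.

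Genes around the locus were examined in the same fits. Of 84 other genes within 5 Mb of the locus, tested in 500 gene-gate pairs, 2 pairs were called for tamoxifen+rapamycin over tamoxifen and 2 for late rapamycin over tamoxifen (0.4% of pairs each), and edgeR called 0 between tamoxifen+rapamycin and late rapamycin (45 pairs at unadjusted p under 0.05). No share of all pairs at an unadjusted edgeR p under 0.05 is given beside the 45. All calls were in erythroid cells. Among them was Cd48, which encodes a surface protein used in sorting stem cells. Its log2 difference was 0.75 ± 0.14 for tamoxifen+rapamycin (adjusted p = 0.0274) and 0.77 ± 0.14 for late rapamycin (adjusted p = 0.0129). Ifi206, Ifi214 and Ifi208, family genes outside the 10, had 825, 605 and 61 UMIs. Over all cells Ifi206 had 5.03 and 6.89 CPM in tamoxifen+rapamycin mice and 3.28 and 3.93 CPM in late rapamycin mice, against 4.71 and 5.99 CPM in tamoxifen mice; the tamoxifen+rapamycin and tamoxifen mice overlapped, and the late rapamycin mice were below both.

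**Figure D5:**
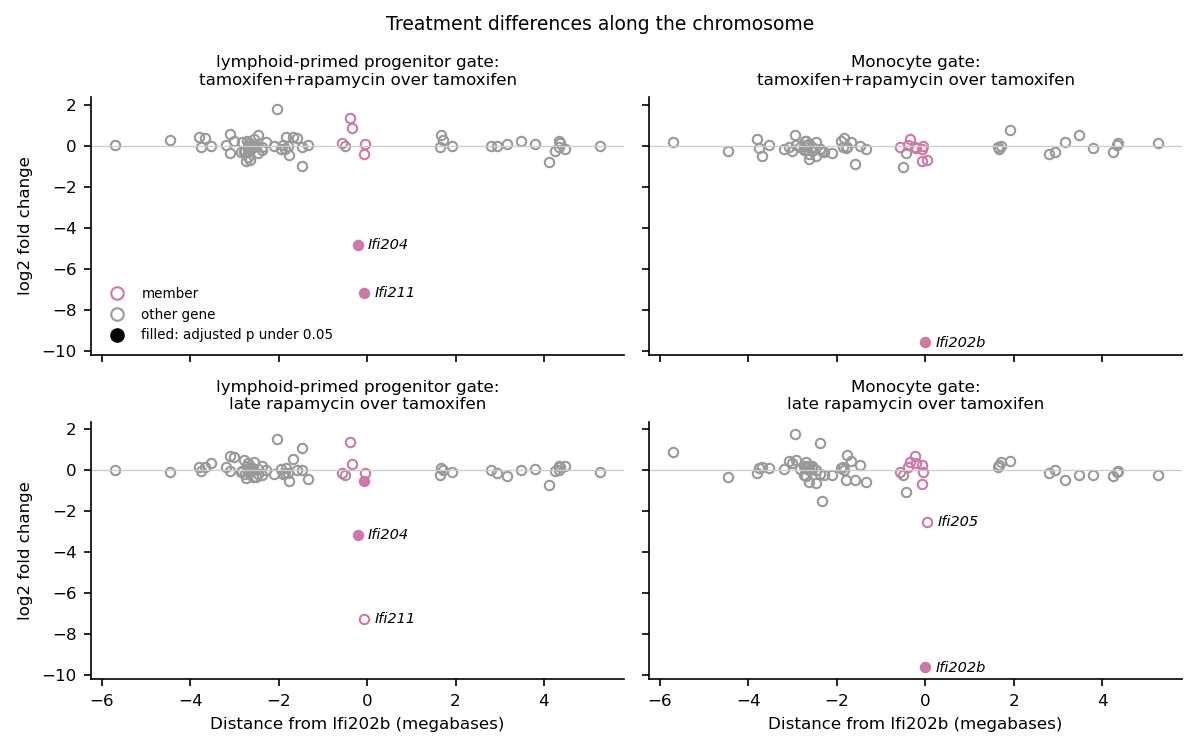
Log2 fold change (y axis, fitted by edgeR) against distance from Ifi202b in megabases (x axis) for genes within 5 Mb of the locus, in lymphoid-primed progenitors (left) and monocytes (right), for tamoxifen+rapamycin over tamoxifen (top) and late rapamycin over tamoxifen (bottom); family genes are pink, other genes grey, and filled points have an adjusted p under 0.05. Ifi204 and Ifi211 stand at −3.17 to −7.24 in lymphoid-primed progenitors and Ifi202b at −9.59 and −9.62 in monocytes, fitted values that depend on counts at or near 0.

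No interferon response gene outside the family was called lower in a comparison with tamoxifen. Of 50 interferon response genes in the tables, tested in 352 gene-gate pairs, 2 pairs were called higher and 0 lower in tamoxifen+rapamycin over tamoxifen, 3 higher and 0 lower in late rapamycin over tamoxifen, and 1 higher in tamoxifen+rapamycin over late rapamycin. Of all gene-gate pairs, 0.202%, 0.512% and 0.339% were called in these comparisons. At an unadjusted edgeR p under 0.05 the list had 49, 55 and 58 pairs in the same order. No share of all pairs at that threshold is given, so the unadjusted counts of this list and of those below are not read as an excess. The medians of the list over gates lay between −0.03 and 0.33 for tamoxifen+rapamycin over tamoxifen and between −0.02 and 0.55 for late rapamycin over tamoxifen, and those of all genes tested between −0.01 and 0.00. The called genes were all higher in a rapamycin-treated group. In erythroid cells Cmpk2, a nucleotide kinase, had 36.5 and 32.1 CPM in tamoxifen+rapamycin mice and 25.6 and 14.1 CPM in late rapamycin mice, against 20.03 and 16.3 CPM in tamoxifen mice. Igtp, an immunity-related GTPase, had 18.9 and 12.1 CPM in erythroid cells of tamoxifen+rapamycin mice against 7.30 and 5.99 CPM in those of tamoxifen mice (log2 difference 1.16 ± 0.22, adjusted p = 0.0274). Bst2 (tetherin) in megakaryocytes had 97.3 and 107 CPM in late rapamycin mice against 53.7 and 64.1 CPM in tamoxifen mice (log2 difference 0.80 ± 0.17, adjusted p = 0.00425), and it was also called in erythroid cells, together with Ifitm3. Of 18 interferon receptor and signalling genes (147 pairs), edgeR called 0 in either comparison with tamoxifen (10 pairs at unadjusted p under 0.05 for tamoxifen+rapamycin and 7 for late rapamycin), and Usp18 was called lower in tamoxifen+rapamycin over late rapamycin in erythroid cells. Of 8 AIM2 inflammasome genes (48 pairs) and 10 genes of DNA sensing through STING (74 pairs), edgeR called 0 in any comparison. At an unadjusted p under 0.05 there were 3 inflammasome pairs for tamoxifen+rapamycin over tamoxifen and 7 for late rapamycin over tamoxifen, and 3 STING pairs in each of them.

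Likeness to Ifi204 and to Mndal, the member with the most UMIs, was measured by Pearson's r among 10727 genes with a mean of at least 5 CPM, as a description with no test. Across the means of the 9 gates, which come from the same 6 mice, the genes most like Ifi204 were Atp6v1b2 (r = 0.97), Sirpb1c, Il13ra1, Apoc2 and Cd300c2 (r = 0.95), and of the family Ifi207 (r = 0.86) and Ifi211 (r = 0.81). For Mndal these were Zfp263 (r = 0.99), Atf7, 3300002I08Rik, Stoml1 and Lipo3 (r = 0.99), with Ifi203 at 0.99 and Aim2 at 0.95. Over the 48 sums of a mouse in a gate other than HSC, after subtracting each gate's mean, Ifi211 was at 0.82 with Ifi204, and the nearest genes outside the family were Hvcn1 (r = 0.67), Flvcr1, Trim21, Arrdc4 and Ep300 (r = 0.59). The HSC gate was left out after the values had been seen, since its Ifi204 level entered the choice of the family. With it, over 54 sums, Ifi211 was at 0.83, and the nearest genes were Hvcn1 (r = 0.69), Arrdc4, Map3k9, Flvcr1 and Abcc4 (r = 0.58). Over the 54 sums Mndal was nearest to Dcun1d1 (r = 0.75), Ubn2, Xist, Ccdc88a and Kdm3a (r = 0.69), with Ifi203 at 0.59.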

How the data were processed

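The deposited files hold raw UMI counts per gene and cell for 2 droplet runs, with hashtag antibody counts, per the file headers. Cell Ranger 7.0.0 and mm10 are given per the submitters' processing notes, while the matrix header names 8.0.1; whether intronic reads were counted is not given in the sources used here. A cell was kept with at least 500 genes, 1000 UMIs, at most 10% mitochondrial UMIs and 1 hashtag; cells with several hashtags and 1538 and 1156 expected hidden doublets (first and second day) were removed. The hashtag table assigns hashtags 1 and 4 to tamoxifen+rapamycin, 2 and 5 to tamoxifen, and 3 and 6 to a control, read here as late rapamycin because that is the treatment not otherwise in the table. The labels number the tamoxifen mice 1 and 4 and the tamoxifen+rapamycin mice 2 and 5.

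UMIs were summed per mouse and gate and tested with edgeR 4.0.16 (R 4.3.3, quasi-likelihood, TMM, Benjamini-Hochberg over all genes of a gate), with day as a block between treatments. The replicate number is the processing day in the labels; deviations from the treatment means correlated between same-day mice at 0.256, 0.220 and 0.177 over 14777 genes. DESeq2 1.42.0, RLE factors, no filter, no block, stricter cells and gates, cells before doublet removal and each mouse left out were alternatives. A mouse left alone in its treatment is assumed to vary like the others. Intervals and floors (3 UMIs) cover counting error only. On simulated data, 97% of 4-fold and 17% of 1.5-fold changes were recovered for late rapamycin over tamoxifen in the HSC gate (10988 genes). In the monocyte gate 95% and 7% were recovered (9119 genes). The changed genes were well-counted ones, with a fixed spread and no day effect, so these shares do not cover family genes with few UMIs. All 10 family genes are named, with locus neighbours, called genes of the lists and the 5 genes most like Ifi204 and Mndal; Cd48 was named after its values were seen. A further called gene is not reported here. Members and lists were chosen with earlier results of these data known.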

Additional observations from a re-analysis of the deposited data

Results flagged for a closer look

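The treatment difference of 2 genes differed between lymphoid-primed progenitors and monocytes by the test of the difference itself, a test chosen after the values had been seen. For Ifi204 the log2 difference in lymphoid-primed progenitors minus that in monocytes was −4.84 for tamoxifen+rapamycin over tamoxifen and −3.55 for late rapamycin over tamoxifen. For Ifi211 it was −6.90 for tamoxifen+rapamycin over tamoxifen and −7.26 for late rapamycin over tamoxifen. The Ifi211 values rest on counts of 0 in lymphoid-primed progenitors of the rapamycin-treated mice and are not bounds. The comparisons share the tamoxifen mice, and each of these calls was lost without either tamoxifen mouse.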

How the results depend on the processing

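For tamoxifen+rapamycin over tamoxifen, 4 family pairs were called, against 12 with no filter on low counts, 1 with DESeq2, 2 before doublet removal, 2 with a stricter marker gate and 2 to 11 with a mouse left out. For late rapamycin over tamoxifen, 5 were called, against 11 with no filter, 0 with DESeq2 (which gave no adjusted p for 3 of the 5), 3 before doublet removal, 3 with stricter cell filters and 3 to 16 with a mouse left out. The count was 11 and 8 without late rapamycin replicate 1, 10 and 16 without late rapamycin replicate 2, and 2 and 3 without tamoxifen replicate 2; it was 2 for tamoxifen+rapamycin without either tamoxifen+rapamycin mouse. For tamoxifen+rapamycin over late rapamycin, 0 were called, against 1 with no filter and 0 to 7 with a mouse left out (1 without tamoxifen+rapamycin replicate 2 and 7 without late rapamycin replicate 2). Without the replicate block, which pairs mice by day, the counts were 2, 3 and 0. The cause of these shifts was not tested. No share of all gene-gate pairs called is given for any alternative, so the counts are not read as a result about the family. Against HSC, 12 to 17 pairs were higher and 18 to 23 lower over the alternatives run. No named call reversed its direction. With 2 mice a treatment, and counts at or near 0 in the rapamycin-treated mice for Ifi202b in monocytes and for Ifi204 and Ifi211 in lymphoid-primed progenitors and megakaryocytes, depth limits the size of each difference.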
